A study of Rattus norvegicus with 9 samples.

Results

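Acute heat stress was compared between hearts of rats that had first lived in the heat for 1 month and hearts of rats that had not been acclimated. The first group, called 1 mo acclimated, heat-stressed, had spent 1 month at 34 °C. The second group, called heat-stressed, came to the stress without acclimation. The stress was the same in both groups, 2 h at 41 °C and then 1 h back at 24 °C. RNA came from the left ventricle. These are 2 of the 9 samples of the series, chosen by their labelled treatment. For context, the values of the other 7 groups are used beside them. These are rats stressed after 2 d of acclimation at 34 °C, rats stressed after reacclimation (1 month at 34 °C, 1 month at 24 °C and 2 d at 34 °C again), their unstressed counterparts after 1 month, 2 d and reacclimation, rats deacclimated for 1 month at 24 °C after the month at 34 °C, and untreated controls. The labels give neither the strain, sex and age of the rats nor any genetic change. Each group was a summary of 3 pools of RNA, with 6 animals stated, and was deposited as 1 value per array row. No replicate error can be computed for any difference below, so all are given as sizes without a test.

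Heat acclimation is a slow adjustment of the whole animal to a warm environment. In the rodent heart it is known for a slower beat, altered calcium handling and contraction, and a raised store of inducible heat shock proteins, the chaperones that refold or clear proteins damaged by heat. Acute heat stress acts through heat shock factor 1, which switches chaperone genes on within minutes to hours while many other transcripts decline. Acclimated hearts are known to start this response from an altered baseline and to tolerate other insults such as ischaemia better.

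The comparison covered 87 array rows. The array names of the rows (such as R332 or A044) are paired with no gene in the files used here, and 0 of the 87 names matched a rat gene name or identifier in the reference table. Rows are therefore described by their array names and by their pattern over the groups, with no gene function given, and the labelled tissue could not be checked against cardiac marker genes. In RNA from whole ventricle, fewer cells of a type and less RNA per cell cannot be told apart. The main values are the authors' log2 ratios to the untreated control. The difference used throughout is the ratio of the 1 mo acclimated, heat-stressed group minus that of the heat-stressed group, in which the control cancels. A difference of at least 1.00 in log2 units is called 2-fold.

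The difference between both groups of stressed hearts lay within 0.5 log2 units of 0 in 41 of 87 rows (47.1%), and its median over all rows was -0.12. In all, 12 rows were at least 2-fold higher (13.8% of the rows) and 11 were at least 2-fold lower (12.6%) in 1 mo acclimated, heat-stressed hearts. Of the 12 higher rows, 6 were rows whose value in heat-stressed hearts lay below -2.5. They are described apart at the end, because they lay at least 1.58 log2 units below every other value of that group, and no value of the 1 mo acclimated, heat-stressed group was so low (its lowest was -2.44). Without them the comparison held 81 rows, of which 6 were higher (7.41%) and 11 lower (13.6%), with a median difference of -0.16. The second deposited table, of scaled intensities, gave a different balance over the 76 rows it covers, with 3 rows higher (3.95%) and 21 lower (27.6%). Without scaling it gave 7 higher and 19 lower.

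**Figure D1:**
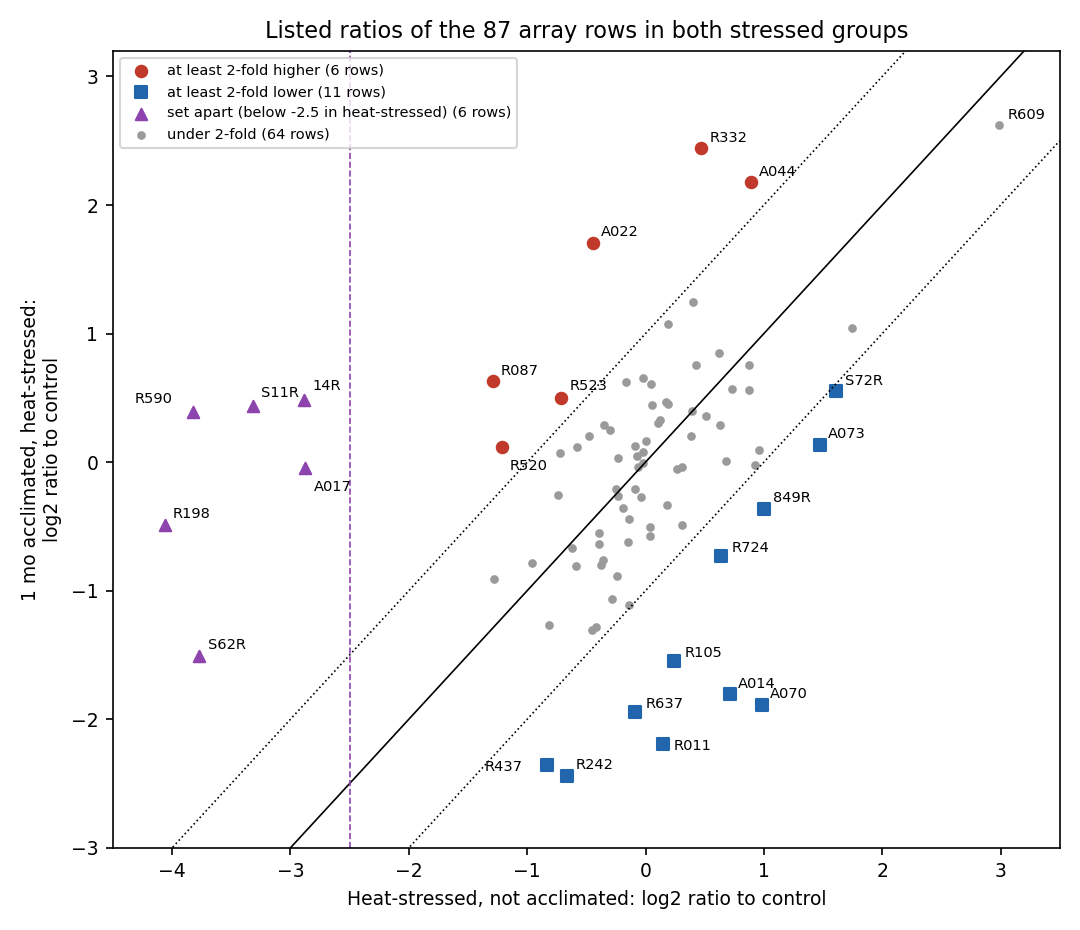
Listed log2 ratio to control of the 87 array rows in 1 mo acclimated, heat-stressed hearts (vertical axis) against heat-stressed hearts that were not acclimated (horizontal axis), 1 point per row. The solid line marks equal values, the dotted lines a 2-fold difference and the dashed line the value of -2.5 below which 6 rows are set apart. Row R609 is the highest in both groups.

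The row with the highest ratio in both groups was R609. It stood at 2.62 in 1 mo acclimated, heat-stressed hearts and at 2.99 in heat-stressed hearts, a difference of -0.37 that did not reach 2-fold. Its intensities were as close, 26384 in 1 mo acclimated, heat-stressed hearts and 27376 in heat-stressed hearts. The unstressed baselines differed: R609 was at 0.86 in unstressed 1 mo acclimated hearts, so that its stressed minus unstressed difference was 1.76 with acclimation and 2.99 without it (control taken as 0, although the control is listed at -3.32 for R609). R609 was chosen for description after its values were seen. With the control taken as 0, R609 was the single row listed at least 2-fold above its own unstressed group in both states. With the control subtracted as listed, A022 joined it (2.01 with acclimation, and -0.45 against a control of -3.32 without). By scaled log2 intensity R532 joined R609, at 1.34 with acclimation and 2.08 without, against 2.68 and 4.46 for R609. S62R, a row set apart below, was the single row listed at least 2-fold below its own unstressed group in both. The second table did not show this. By scaled log2 intensity S62R was -0.48 off its unstressed group with acclimation and 1.11 above the control without it.

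Outside the rows set apart, 6 rows were at least 2-fold higher in 1 mo acclimated, heat-stressed hearts. In 5 of them the unstressed 1 mo acclimated heart lay below the control, taken as 0, and the stressed one at least 2-fold above its own unstressed level. For A022 among these 5, the control is listed at -3.32, and against that value the unstressed 1 mo acclimated heart was 3.02 above it. Row R332 was the exception, with a high level already before stress.

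Row A022 had the largest difference, 2.16 log2 units or 4.45-fold. It stood at 1.71 in 1 mo acclimated, heat-stressed hearts and at -0.45 in heat-stressed hearts. Its intensity was 11123 in 1 mo acclimated, heat-stressed hearts, against 2442 in heat-stressed hearts. Before stress A022 was listed at -0.30 in 1 mo acclimated hearts, close to its level in heat-stressed hearts, so its stressed minus unstressed difference with acclimation was 2.01. The other stressed groups also lay above the heat-stressed group, at 0.69 after 2 d of acclimation and at 2.16 after reacclimation. In reacclimated rats the high level was present before stress too (2.20). The control value of A022 is listed at -3.32 instead of 0, which does not enter the difference between both stressed groups.

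Row A044 was high in all stressed groups and lowest without acclimation. Its log2 ratio was 2.18 in 1 mo acclimated, heat-stressed hearts, 1.98 after 2 d of acclimation with stress, 2.34 after reacclimation with stress, and 0.89 in heat-stressed hearts. The difference between 1 mo acclimated, heat-stressed and heat-stressed hearts was 1.29, or 2.44-fold. The unstressed 1 mo acclimated heart was at -0.16, near the control. The intensity of A044 was 10223 in 1 mo acclimated, heat-stressed hearts and 3110 in heat-stressed hearts, against 1959 in unstressed 1 mo acclimated hearts and 3318 in the control. In unscaled intensity A044 did not stand above the control in heat-stressed hearts, while the acclimated, stressed heart stood above all 3 of the others.

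Rows R087, R520 and R523 shared a pattern, below the control in heat-stressed hearts and above it in 1 mo acclimated, heat-stressed hearts. R087 was at 0.63 in 1 mo acclimated, heat-stressed hearts, against -1.29 in heat-stressed hearts, a difference of 1.92. R520 was at 0.12 in 1 mo acclimated, heat-stressed hearts, against -1.21 in heat-stressed hearts, a difference of 1.33. R523 was at 0.50 in 1 mo acclimated, heat-stressed hearts, against -0.72 in heat-stressed hearts, a difference of 1.21.
All 3 rows were also low in unstressed 1 mo acclimated hearts, at -0.97 for R087, -0.89 for R520 and -0.94 for R523. Their listed stressed minus unstressed differences therefore ran in opposite directions in both states. For R087 it was 1.60 with acclimation and -1.29 without. For R520 it was 1.01 with acclimation and -1.21 without, and for R523 it was 1.44 with acclimation and -0.72 without. The second table gave the same direction for R087 (0.23 in scaled log2 intensity) and R523 (0.54), below 2-fold in both, and is empty for R520 in heat-stressed hearts. It did not show the opposite directions on stress. By scaled log2 intensity R087 was 2.57 above its unstressed group with acclimation and 0.46 above the control without it, and R523 was 3.01 and 0.24 above in these states.

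Row R332 differed by 1.97 log2 units, or 3.92-fold. It stood at 2.44 in 1 mo acclimated, heat-stressed hearts and at 0.47 in heat-stressed hearts. Unstressed 1 mo acclimated hearts were listed at almost the same level as the stressed ones (2.36), so the listed stressed minus unstressed difference of R332 was 0.08 with acclimation. The second table did not show equal levels. By scaled log2 intensity R332 was 1.15 above its unstressed group with acclimation. In the listed ratios R332 was the only row of the 17 that were 2-fold apart outside the set-apart rows with a difference of 2-fold in the same direction already present between unstressed 1 mo acclimated hearts and the control. With the control subtracted as listed, A022 joined it. R332 was dim on the array. Its intensity was 2026 in 1 mo acclimated, heat-stressed hearts, 905.0 in unstressed 1 mo acclimated hearts and 184.1 in the control, and no intensity is given in heat-stressed hearts.

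The next rows by size were under 2-fold. Row R516 lay just below that limit at 0.88, with R472 at 0.84 and R177 and A057 at 0.79 each, while R523 lay just above it. For R177 and A057 the scaled intensities ran the other way, at -1.12 and -0.93. R516 resembled A044 in that it was above the control in all acclimated, stressed groups, at 1.07 after 1 month, 1.33 after 2 d and 1.59 after reacclimation, against 0.19 in heat-stressed hearts. Unlike A044 (0.15), R516 was already high in unstressed reacclimated hearts (1.78), and it was at 1.56 after deacclimation. R472 was already at 0.97 in unstressed 1 mo acclimated hearts, and reached 1.25 in 1 mo acclimated, heat-stressed hearts against 0.40 in heat-stressed hearts.

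**Figure D2:**
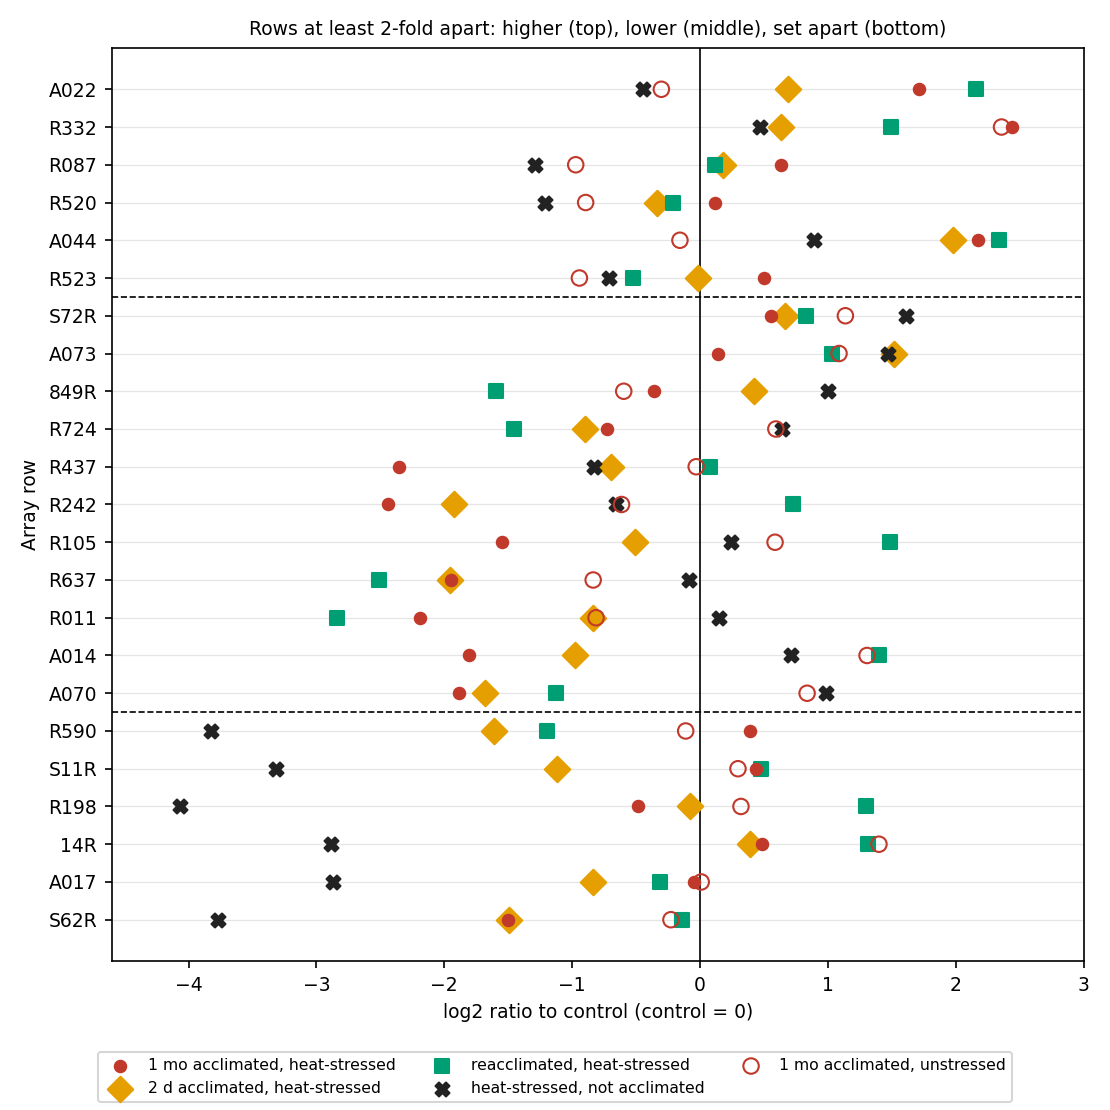
Log2 ratio to control (horizontal axis) of the 23 rows at least 2-fold apart between both stressed groups, 1 line per row, in the 4 stressed groups (filled symbols) and in unstressed 1 mo acclimated hearts (open circles). Each symbol is the 1 deposited value of a group. In R637 and S62R the values of the 1 mo and the 2 d acclimated, stressed groups nearly coincide, and in the bottom 6 rows the heat-stressed group stands far below all others shown.

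The 11 rows that were at least 2-fold lower in 1 mo acclimated, heat-stressed hearts outnumbered the 6 higher ones outside the rows set apart, but not all 12 higher rows, and without the 25% of rows of lowest intensity 9 were higher and 4 lower. In 10 of the 11 lower rows the stressed, acclimated heart was listed below its own unstressed group, by at least 2-fold in 8. In 8 of the 11 the heat-stressed heart was listed above the control. By scaled log2 intensity, R011 (-0.51), S72R (-0.36), 849R (-0.35) and R724 (-1.22) were instead below the control there. Of the listed 2-fold falls on stress with acclimation, those of R011 (-0.007), R637 (-0.39) and R724 (-0.10) were under 2-fold by scaled log2 intensity. None of the 11 was listed 2-fold below the control (taken as 0) in unstressed 1 mo acclimated hearts, and 6 were listed above it there. By unscaled intensity R011 (1130 against 3938 in the control), 849R (407.4 against 3750) and R724 (2013 against 6250) were more than 2-fold below it. S72R, listed above the control, was below it (6316 against 8922). R242 (4046 against 2041) and R437 (14885 against 9073), listed below the control, were above it.

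Rows A070 and A014 had the largest differences. A070 stood at -1.89 in 1 mo acclimated, heat-stressed hearts and at 0.98 in heat-stressed hearts, a difference of -2.87 or 7.30-fold. A014 stood at -1.80 in 1 mo acclimated, heat-stressed hearts and at 0.71 in heat-stressed hearts, a difference of -2.51 or 5.71-fold. Both rows were above the control in unstressed 1 mo acclimated hearts, A070 at 0.84 and A014 at 1.31, so that the stressed minus unstressed difference with acclimation was -2.72 for A070 and -3.11 for A014.
The intensity of A070 was 764.5 in 1 mo acclimated, heat-stressed hearts, against 2322 in heat-stressed hearts, and that of A014 was 391.9 in 1 mo acclimated, heat-stressed hearts, against 2516 in heat-stressed hearts. The 2 rows parted in the other stressed groups. A070 was low in each acclimated, stressed group (-1.68 after 2 d and -1.12 after reacclimation), whereas A014 was low after 2 d (-0.98) and above the control after reacclimation (1.40).

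Rows R011 and R637 were listed low in acclimated hearts before stress and lower with it. R011 was at -2.19 in 1 mo acclimated, heat-stressed hearts, -0.81 in unstressed 1 mo acclimated hearts and 0.15 in heat-stressed hearts, a difference of -2.34 between both stressed groups. R637 was at -1.94 in 1 mo acclimated, heat-stressed hearts, -0.84 in unstressed 1 mo acclimated hearts and -0.08 in heat-stressed hearts, a difference of -1.86. In both rows the heat-stressed heart was the highest of the 8 treated groups. R637 is a brighter row, with an intensity of 2629 in 1 mo acclimated, heat-stressed hearts and 6596 in heat-stressed hearts. Its difference between both stressed groups was also 2-fold by scaled intensity (-1.62). The listed fall on stress with acclimation was smaller in the second table. By scaled log2 intensity it was -0.007 for R011, against -1.38 as listed, and -0.39 for R637, against -1.11 as listed.

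Rows R242, R437 and R105 reached their lowest level of the 8 treated groups in 1 mo acclimated, heat-stressed hearts. R242 was at -2.44 there and at -0.66 in heat-stressed hearts. R437 was at -2.36 in 1 mo acclimated, heat-stressed hearts and at -0.83 in heat-stressed hearts, and R105 was at -1.55 in 1 mo acclimated, heat-stressed hearts and at 0.24 in heat-stressed hearts. After reacclimation with stress the same 3 rows were at 0.73, 0.08 and 1.49, above the control.
The tables part for R437, whose intensity was 6837 in 1 mo acclimated, heat-stressed hearts, against 5516 in heat-stressed hearts, a scaled log2 difference of 0.02. For R105 the control is listed at -6.64, which leaves the difference between the stressed groups untouched but not the levels.

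The other 4 lower rows, S72R, A073, 849R and R724, were listed above the control in heat-stressed hearts, at 1.61, 1.47, 1.00 and 0.64. In 1 mo acclimated, heat-stressed hearts S72R was at 0.55 and A073 at 0.14, still above the control, whereas 849R was at -0.36 and R724 at -0.73. The control of R724 is listed at -3.32, and against that value R724 was above the control in both stressed groups. The second table parts from these levels. By scaled log2 intensity A073 was above the control in heat-stressed hearts (0.54), but S72R (-0.36), 849R (-0.35) and R724 (-1.22) were below it. Row 849R was the single lower row with no lower level on stress after acclimation (0.24 above its unstressed group). Row S72R lay just inside the 2-fold limit at -1.06 and S145R just outside it at -0.97.

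**Figure D3:**
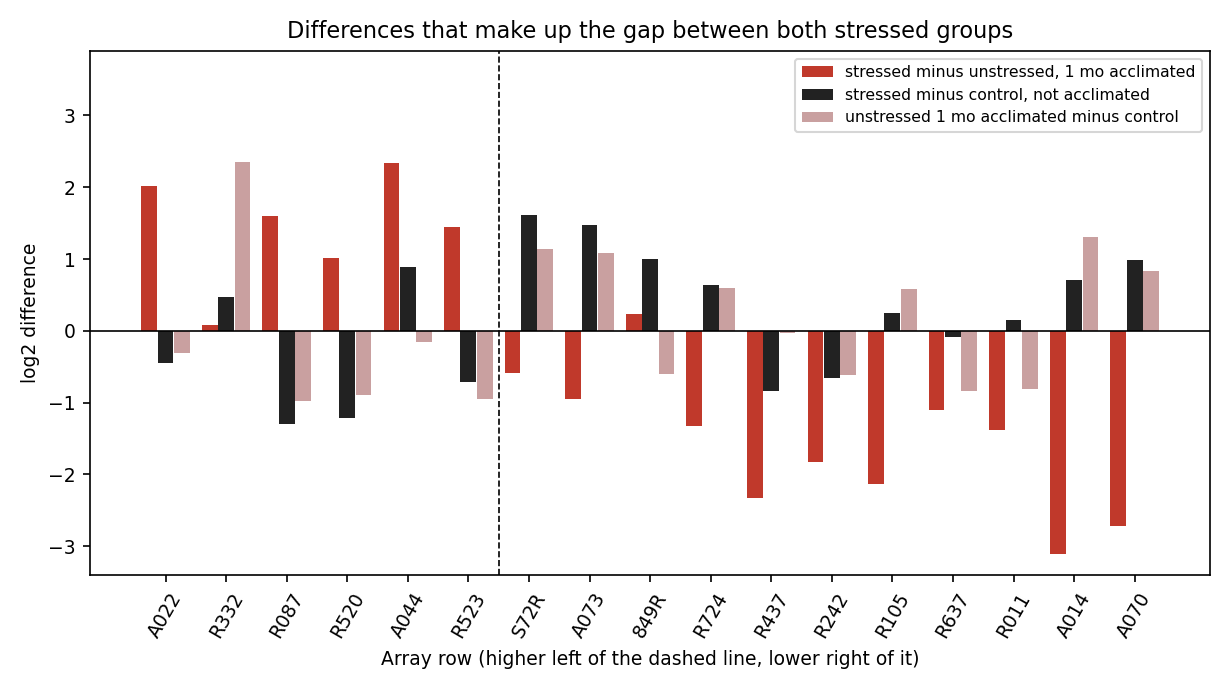
Log2 differences of the 17 rows at least 2-fold apart outside the set-apart rows: stressed minus unstressed in 1 mo acclimated hearts, stressed minus control in hearts that were not acclimated, and unstressed 1 mo acclimated minus control, with the control taken as 0. The gap between both stressed groups is the first bar minus the second plus the third, and R332 alone among the higher rows rests on the third bar.

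In the listed ratios of all 87 rows, stress in 1 mo acclimated hearts went with 7 rows at least 2-fold above (8.05%) and 17 below (19.5%) their unstressed level. In hearts that were not acclimated the counts were 5 above (5.75%) and 9 below (10.3%) the control, and without the rows set apart 5 and 3. This excess of falls over all rows was not seen in the second table. There, in scaled log2 intensity, rows at least 2-fold below did not outnumber rows at least 2-fold above, with or without acclimation. Its heat-stressed column is empty in 11 of the 87 rows. Unstressed 1 mo acclimated hearts had 10 rows above (11.5%) and 2 below (2.3%) the control. Whether the responses differ in size cannot be tested with 1 value per group. Of the 23 rows outside those set apart that were listed 2-fold off their unstressed level after stress in acclimated hearts, R609 alone was listed 2-fold off the same way without acclimation.

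As a measure over all rows, the root mean square of the row differences between 1 mo acclimated, heat-stressed and heat-stressed hearts was 1.27, or 0.94 without the 6 rows set apart. Without those rows, the same measure against the heat-stressed group was 0.87 for rats stressed after 2 d of acclimation and 1.18 for rats stressed after reacclimation. These 3 distances share the heat-stressed sample. Between the unstressed pair, 1 mo acclimated and control, it was 0.72, and between the stressed groups after 1 month and after 2 d of acclimation it was 0.76.

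The 6 rows set apart, R590, S11R, R198, 14R, A017 and S62R, carry the largest listed differences in the higher direction. They were picked for a very low value in the group that is subtracted, which by itself favours large differences in that direction. In heat-stressed hearts they were listed between -4.06 (R198) and -2.87 (A017), and each was the lowest of the 8 treated groups there. In 1 mo acclimated, heat-stressed hearts the same rows lay between -1.50 (S62R) and 0.48 (14R). The next value up in heat-stressed hearts, that of R087, was -1.29.

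R590 had the largest difference, 4.21 log2 units, with 0.39 in 1 mo acclimated, heat-stressed hearts and -3.82 in heat-stressed hearts. For S11R the difference was 3.76 (0.44 in 1 mo acclimated, heat-stressed hearts and -3.32 in heat-stressed hearts), and for R198 it was 3.58 (-0.49 in 1 mo acclimated, heat-stressed hearts and -4.06 in heat-stressed hearts). It was 3.37 for 14R, 2.83 for A017 and 2.26 for S62R.
The intensities do not show these depths. R590 had an intensity of 2326 in 1 mo acclimated, heat-stressed hearts and 2376 in heat-stressed hearts. Over the 5 of these rows with an intensity in heat-stressed hearts, it lay between 2199 and 2624 there. By scaled intensity, R198 was higher in 1 mo acclimated, heat-stressed hearts (0.89) and the other 4 were lower (R590 -0.32, 14R -0.83, A017 -1.38, S62R -1.59).

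A log2 ratio of geometric means over 3 pools is shifted by -3.32 when the level of 1 pool is multiplied by 0.001, a shift that also appears in the control column in rows where the control is listed away from 0. Nothing in the sources used here states whether the authors set pools to such a floor. If 1 such step is added back to the heat-stressed value of the 6 rows, R590 differs by 0.89, S11R by 0.44, R198 by 0.26, 14R by 0.05, A017 by -0.49 and S62R by -1.06. None of the 6 would then be 2-fold higher, and S62R would be 2-fold lower. The level of a pool set to a floor is not known, so these are not corrected differences.

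The second table was used as a check on the whole comparison. It gives both intensities in 76 rows and is empty for heat-stressed hearts in 11. In 54 of the 76 rows the scaled intensity difference had the same sign as the listed one, and in 53 of 71 rows without those set apart. Pearson's r across rows was 0.44 over 76 rows and 0.62 over 71, with Spearman's rho of 0.46 and 0.54, as a description of rows measured on the same RNA. Of the 12 rows that were 2-fold apart in both tables, 8 were lower in both, 2 were higher in both (A022 and A044) and 2 were opposite (A017 and S62R).

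The low ends of both intensity columns differed. The lowest intensity was 380.0 in 1 mo acclimated, heat-stressed hearts and 1511 in heat-stressed hearts, with medians of 3058 in 1 mo acclimated, heat-stressed hearts and 3274 in heat-stressed hearts. In 21 rows the 1 mo acclimated, heat-stressed intensity was under 1511, and 18 of these have an intensity in heat-stressed hearts, which could only be higher. They include 7 of the 11 lower rows (A070, A014, R011, R105, R242, 849R and A073) and 16 of the 21 rows that were 2-fold lower by scaled intensity. Without these rows, scaled intensities gave 3 rows higher and 5 lower over 58 rows. The part of this difference in range in the results was not tested beyond these counts.

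The 11 rows without an intensity in heat-stressed hearts still carry a listed ratio there, between -3.32 and 0.73. They were of low to middle intensity in 1 mo acclimated, heat-stressed hearts, between 526.4 and 2250 (R520). Of these rows, 3 were listed at least 2-fold higher in 1 mo acclimated, heat-stressed hearts (R332, R520 and S11R) and 0 were 2-fold lower, so these 3 differences have no check in the second table.

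**Figure D4:**
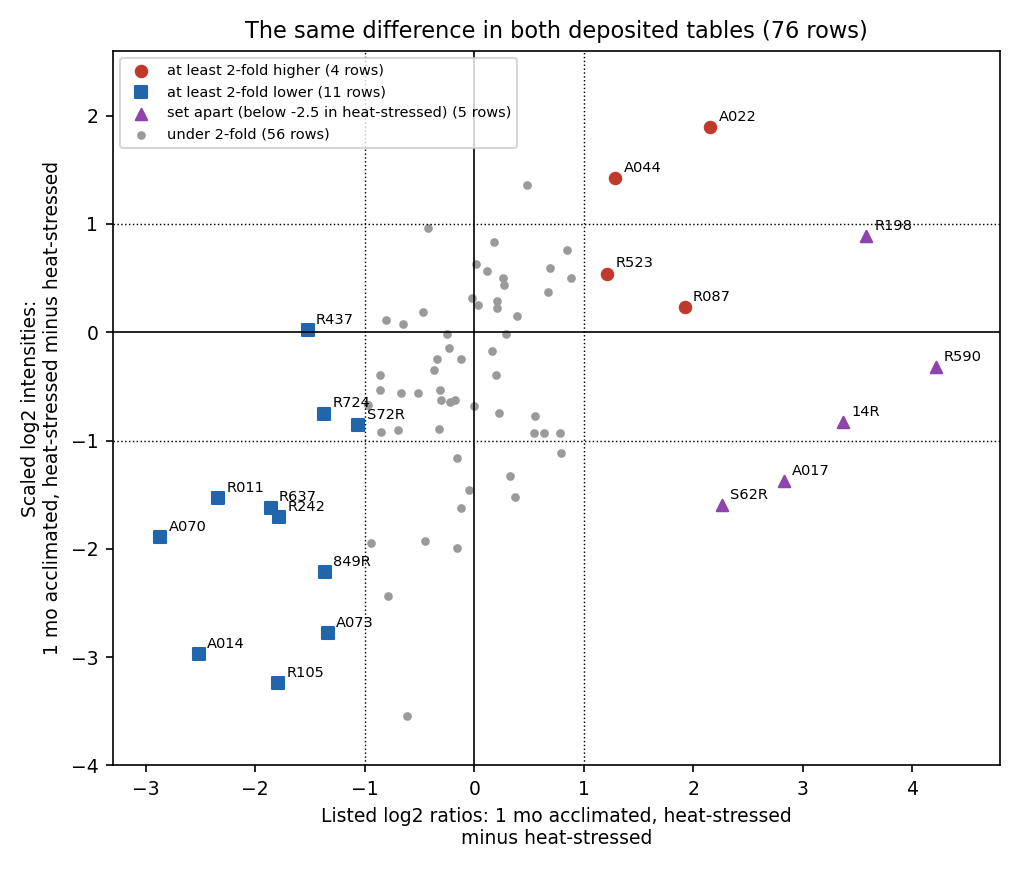
Difference between 1 mo acclimated, heat-stressed and heat-stressed hearts in scaled log2 intensity (vertical axis) against the difference in listed log2 ratios (horizontal axis) for the 76 rows with both, 1 point per row. Dotted lines mark 2-fold. A022 and A044 are 2-fold higher on both axes, 8 of the lower rows are 2-fold lower on both, and 4 of the 5 set-apart rows shown lie below 0 on the vertical axis.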

How the data were processed

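Per the labels' protocols, pooled left ventricular RNA carried a phosphorus label and was read on an array made by Clontech. The deposited log2 table holds normalized ratios of geometric means to the control, per the labels. The second deposited table holds intensity values on a linear scale. How it was background-corrected or scaled, which scanner software was used and why these 87 rows were kept is not stated. The number of arrays limits the precision.

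Log2 ratios of both groups were subtracted per row. Rows at least 2-fold apart were counted, and rows below -2.5 in the heat-stressed column were set apart. Intensities above 0 were put on the log2 scale and scaled by subtracting, in every sample, the median of the 59 rows that are positive in all of them. Named rows are the 10 largest differences in each direction outside the set-apart rows, the set-apart rows and the rows next to each limit. R609 was added after its values were seen. The comparison, the limit of -2.5 and the rules were chosen with earlier results of these data known. Alternatives changed the centring, the floor, the filter, the fold limit and the table. The counting was tested on simulated data. The scripts ran in Python 3.11.15 (pandas 2.3.3, numpy 2.4.6; figures in matplotlib 3.10.9). No sequence is shown, since the row names are paired with no gene or probe in the files used here.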

Additional observations from a re-analysis of the deposited data

Results flagged for a closer look

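In 2 rows the difference between stressed and unstressed hearts was at least 2-fold in both states and ran in opposite directions. For R087 it was 1.60 log2 units after 1 month of acclimation and -1.29 without acclimation, which differ by 2.89. For R520 it was 1.01 after 1 month of acclimation and -1.21 without acclimation, which differ by 2.23. With 1 value per group this contrast was not tested, and the value without acclimation takes the control as 0. In scaled log2 intensity R087 was above its unstressed group in both states (2.57 and 0.46), and R520 has no intensity in heat-stressed hearts.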

How the results depend on the processing

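The main counts were 12 rows higher and 11 lower, with a median difference of -0.12 and a root mean square of 1.27 log2 units. Leaving out the 6 set-apart rows gave 6 higher, a median of -0.16 and a root mean square of 0.94, and adding 1 floor step back to them gave 6 higher, -0.15 and 0.92. Without the 25% of rows of lowest intensity 4 rows were lower, with a median of 0.027 and a root mean square of 1.11. Centring moved the median to -0.19, and leaving out rows without both intensities moved the root mean square to 1.26. Scaled intensities gave 3 higher and 21 lower (-0.56 and 1.23), unscaled ones 7 and 19 (-0.27 and 1.12), and scaled ones without rows under the lowest heat-stressed intensity, an alternative chosen after seeing the data, 3 and 5 (-0.21 and 0.80). A limit of 1.5-fold gave 20 higher and 22 lower, and one of 3-fold 6 lower. R332 was the 1 row also 2-fold apart unstressed. That count was 2 with the control as listed and 7 by scaled intensity, both chosen after seeing the data. Directions reversed by scaled and unscaled intensity for R437 (0.018 and 0.31), A017 (-1.38 and -1.09), R590 (-0.32 and -0.031), 14R (-0.83 and -0.54), S62R (-1.59 and -1.30), for the rows under 2-fold R177 (-1.12 and -0.83) and A057 (-0.93 and -0.64), and with the floor step for A017 (-0.49) and S62R (-1.06). The cause was not tested for the intensity table. Centring reversed 0 of the 28 named rows. No paired analysis was possible because each group has 1 sample.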
